A study of Gallus gallus with 10 samples.

Results

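Transcripts of 33 genes of programmed cell death and of the p53 response were followed in the embryonic chicken retina after the lens had been removed. The genes were taken by symbol from a list of 35 and fall into 3 roles: 18 that promote death, 6 that protect cells, and 11 that p53 induces or that regulate p53. The table lists 12464 genes in all. PERP and CDKN1A of the p53 role are not listed under these symbols and were not analysed here. The retinas came from 5 wild-type chicken embryos of the Dekalb white strain, operated on at Hamburger and Hamilton stage 23 (about embryonic day 4). In each embryo the lens was pulled from 1 eye through a slit on its dorsal side, and the retinas of both eyes were collected 6 h later. The 5 operated and 5 control retinas were sequenced singly and are paired by embryo. The other eye was left unopened, so that loss of the lens and opening of the eye cannot be told apart.

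Apoptosis is run by caspases, proteases that are activated by either of a pair of routes. In the mitochondrial route, BH3-only proteins sense stress and bind survival proteins such as BCL2 and BCL-XL, which releases pore formers such as BAK, so that cytochrome c leaves the mitochondria and assembles APAF1 and caspase-9. In the receptor route, ligand-bound receptors such as FAS recruit the adaptor FADD and the initiator caspases 8 and 10, with CFLAR as their inhibitor. The transcription factor p53 is stabilised by DNA damage and other stresses, is held down by MDM2 and MDM4, and induces genes that arrest the cell cycle, repair DNA or favour death. Cell death is a normal part of early retinal development in the chick. The roles given here are those known from mammals.

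Libraries were of similar depth. Steps between low values gave effective sizes of 18671000 to 26005000 reads per library, so that a normalised read count of 1 stood for 18.7 to 26.0 reads. Genes of the neural retina were present (14 of 15 markers), with summed levels of 1595 to 1990 in the controls and 1810 to 2031 in the operated libraries. Their sum was higher in the operated retina of 4 of 5 embryos. In the fit of all genes, 4 of the 14 rose and 2 fell. Other tissues were present as well. The summed level of 13 pigment epithelium genes was lower in the operated retina of all 5 embryos (360 to 861 in controls, 333 to 462 in operated retinas), and that of 11 periocular mesenchyme genes in 4 of 5 (75.7 to 254 against 75.6 to 106). The 5 listed haemoglobin genes summed to 30.03 to 378 in controls and 111 to 319 in operated retinas and were higher in 4 of 5 embryos. The control of embryo 5 held the highest pigment, mesenchyme and haemoglobin sums. The sum of the 7 listed lens genes, of 19, was higher in the operated retina of all 5 embryos (112 to 167 in controls, 125 to 190.0 in operated retinas); 2 of the 7 rose and 1 fell in the fit of all genes. Of 18 markers of white blood cells and microglia, 6 were listed, none above 4.88 in any library. In RNA of whole retinas, fewer cells of a type and less RNA per cell cannot be told apart.

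**Figure D1:**
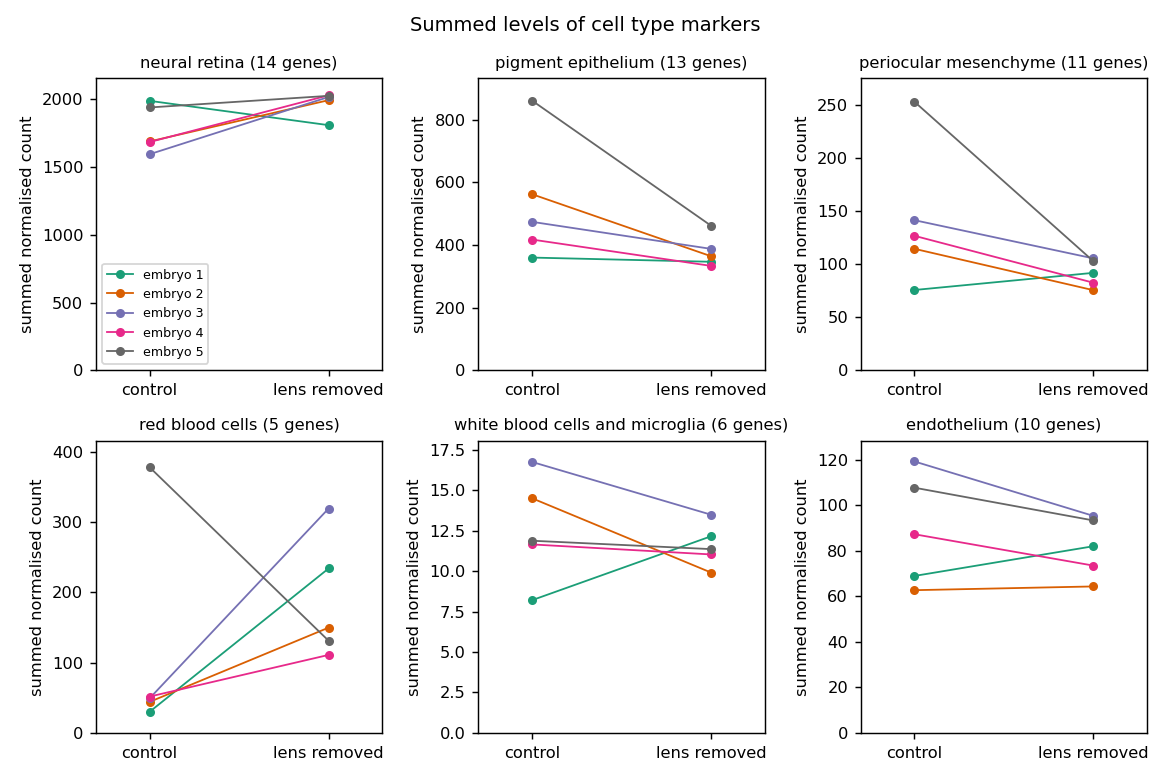
Summed normalised read counts of cell type markers (vertical axis) in the control and the operated retina of each embryo, joined by lines. Pigment sums were lower after lens removal in 5 of 5 embryos, and the control of embryo 5 had the highest pigment, mesenchyme and haemoglobin sums.

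The genes moved in both directions, within the death-promoting role as well. Transcripts of the BH3-only gene BMF rose 2.58-fold, and those of BCL2, TP53INP1 and GADD45A also rose. Those of CASP8, CASP10, CYCS (cytochrome c) and AIFM1 fell, on the log2 scale by less than BMF rose. Changes were estimated within embryos on log2(normalised read count + 1) with limma, adjusted by Benjamini and Hochberg over 9076 genes with a mean of at least 10, with a threshold of 0.05. Levels are normalised read counts, as mean ± SD of 5 embryos, control first and operated second. Of the 28 genes tested, 4 rose, 4 fell and 20 did not pass. That is 28.6% called, against 22.9% of all genes tested (10.6% higher and 12.3% lower), so that the share lay near the background. Their median log2 change was -0.02, against -0.0013 over all genes tested, and their median absolute change 0.098 against 0.14. By role, 1 death-promoting gene rose and 4 fell of 14, 1 survival gene rose and 0 fell of 6, and 2 p53 response genes rose and 0 fell of 8. The survival gene that rose, BCL2, reached the filter only through its operated retinas (control mean 9.82). The other 5 genes (CASP9, BCL2L11, BOK, FAS and GADD45B) had means under 10. When all genes of the table were fitted, BCL2L11, FAS and GADD45B rose as well, which made 11 of 33 called (33.3%), against 21.6% of all genes in that fit (11.5% higher and 10.1% lower). The listing of FAS rested on its operated retinas, as given below. The counts of the main fit changed when an embryo was left out: 2 rose and 1 fell without embryo 4, 3 rose and 1 fell without embryo 2, and 3 rose and 2 fell without embryo 3. Counts over all genes tested moved as well, from 963 higher and 1112 lower to 381 and 298 without embryo 4, 433 and 371 without embryo 2, and 761 and 739 without embryo 3. Without embryo 5, 4 rose and 4 fell, with 787 higher and 827 lower over all genes tested.

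**Figure D2:**
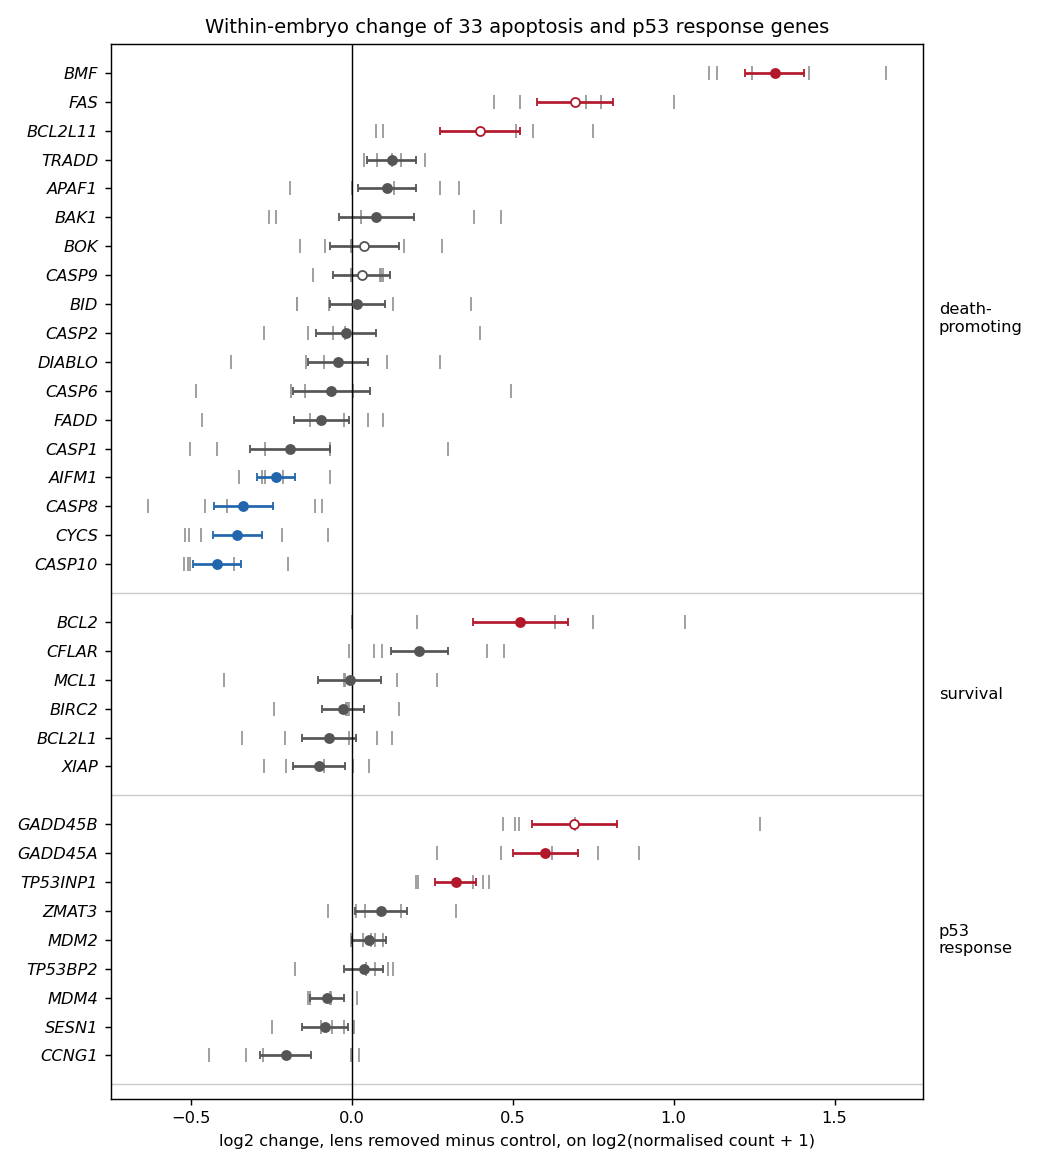
Log2 change of each gene, operated minus control, on log2(normalised read count + 1), by role. Circles are limma estimates with standard errors (red higher, blue lower, grey not past the threshold; open circles are genes of a mean under 10, from the fit of all genes), and grey ticks are the 5 embryos. BMF lay farthest to the right at 1.31, and 22 of the 33 genes did not pass.

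Products of BH3-only genes bind survival proteins, and 1 of these genes, BMF, had the largest log2 change of the 33. BMF, which encodes a BH3-only protein linked to the cytoskeleton, was at 18.0, 19.5, 21.0, 23.8 and 16.7 in the controls of embryos 1 to 5 and at 40.6, 43.2, 51.2, 65.3 and 55.0 in the operated retinas. Every operated retina was above every control, a separation seen for 6.41% of all genes tested in that direction. The mean rose from 19.8 ± 2.74 to 51.1 ± 9.88 (SD, n = 5 embryos; log2 change 1.31, SE 0.092, limma adjusted p = 0.00011). A log2 change at least as high was found for 28 of the 9076 genes tested (0.309%), BMF included. BMF kept its call when each embryo was left out in turn (log2 change 1.23 to 1.36).

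BCL2L11, which encodes the BH3-only protein BIM, lay lower. Its levels in embryos 1 to 5 were 4.81, 3.77, 3.07, 4.04 and 6.29 in controls and 5.12, 6.05, 5.84, 6.18 and 6.80 in operated retinas, resting on 73 to 155 reads per library. The operated retina was higher in all 5 embryos, but the groups overlapped through the control of embryo 5. The log2 change was 0.40 (SE 0.12, adjusted p = 0.047 in the fit of all genes). The call was lost without embryo 2, 3 or 4 (adjusted p = 0.16, 0.14 and 0.16) and with no replicate block (adjusted p = 0.094). BID, a BH3-only protein that caspase-8 cleaves, was at 188 ± 25.6 and 189 ± 15.8, and the 95% interval of its log2 change ran from -0.17 to 0.21. The pore formers did not pass either. BAK1, which encodes BAK, was at 41.3 ± 5.58 and 43.8 ± 6.98 (log2 change 0.08, 95% interval -0.19 to 0.34), and its relative BOK was at 3.28 ± 0.482 and 3.38 ± 0.403.

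**Figure D3:**
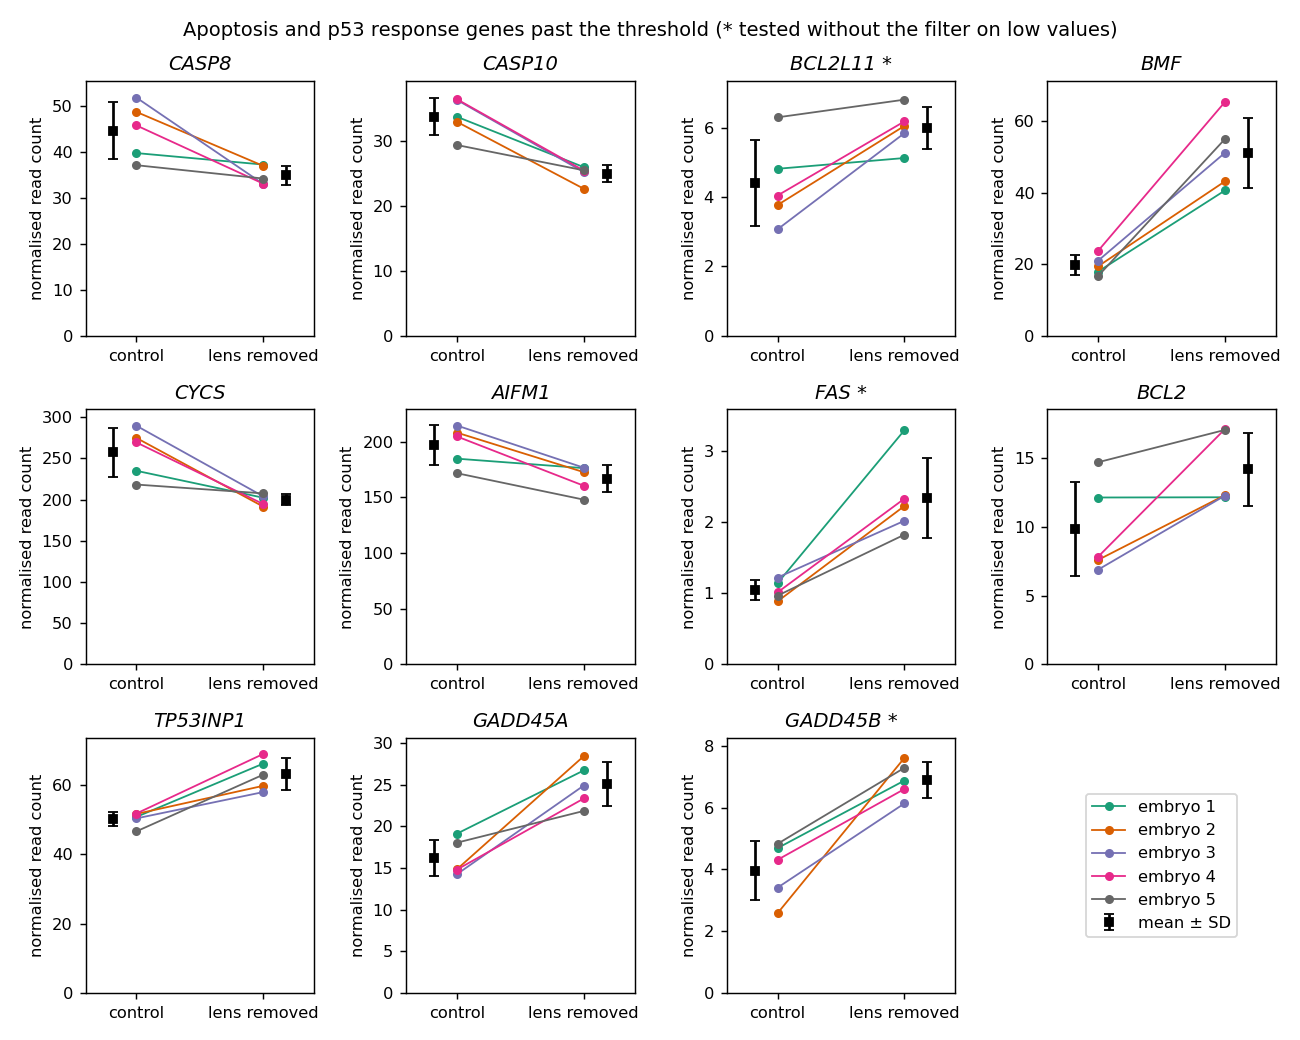
Normalised read counts (vertical axis, from 0) of the 11 genes past the threshold in the control and the operated retina of each embryo, joined by lines; black squares and bars are means and SD of 5 embryos. BMF rose from 16.7 to 23.8 in the controls to 40.6 to 65.3 after lens removal, while the groups of CASP8, AIFM1, BCL2 and BCL2L11 overlapped.

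In the receptor route, the initiator caspase genes CASP10 and CASP8 were lower, the call of CASP8 being lost without some embryos. The receptor gene FAS was higher, but its listing rested on its operated retinas. FAS, which encodes a death receptor, was at 1.14, 0.884, 1.22, 1.01 and 0.965 in the controls of embryos 1 to 5 and at 3.29, 2.22, 2.02, 2.33 and 1.82 in the operated retinas. All operated values lay above all controls, at 23 to 77 reads per library. No gene with deposited values was above 1 in fewer than 5 libraries. FAS met that level only with its operated retinas, as the controls of embryos 2 and 5 lay under 1. Its separation and adjusted p are therefore a description, not independent of how genes came to be listed. The mean rose from 1.04 ± 0.135 to 2.33 ± 0.567 (ratio of means 2.24). The log2 change was 0.69 (SE 0.12, adjusted p = 0.0039 in the fit of all genes), a scale that understates the change at such a level. FAS was called without each embryo in turn (adjusted p at most 0.025). The 6 listed white blood cell markers, of 18, summed to 8.20 to 16.7 in controls and 9.91 to 13.5 in operated retinas; their part in the FAS result was not tested.

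CASP10, an initiator caspase, was at 33.8, 33.03, 36.4, 36.5 and 29.4 in controls and at 26.0, 22.7, 25.3, 25.5 and 25.5 in operated retinas. The groups did not overlap, as for 7.27% of all genes tested in that direction. Its mean fell from 33.8 ± 2.90 to 25.01 ± 1.32 (log2 change -0.42, SE 0.075, limma adjusted p = 0.0061), and the call held without each embryo (adjusted p at most 0.041). CASP8, the related initiator, was at 39.8, 48.7, 51.8, 45.8 and 37.1 in controls and at 37.3, 37.0, 33.1, 33.1 and 34.2 in operated retinas. It was lower after the operation in all 5 embryos, by little in embryos 1 and 5, where the controls were lowest. Its log2 change was -0.34 (SE 0.091, adjusted p = 0.029), and the call was lost without embryo 2, 3 or 4 (adjusted p = 0.10, 0.071 and 0.13).

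CFLAR, CASP10 and CASP8 lie beside each other in the GRCg7b assembly, with 0 genes between CFLAR and CASP10 and 1 between CASP10 and CASP8. CFLAR, which encodes the caspase-8 inhibitor FLIP, was higher in 4 of 5 operated retinas (31.4 ± 4.59 and 36.3 ± 2.14, log2 change 0.21, 95% interval 0.01 to 0.41) but did not pass the adjusted threshold (adjusted p = 0.12); its difference from its neighbours was not tested. The adaptor genes FADD (61.2 ± 7.24 and 57.1 ± 5.11) and TRADD (14.7 ± 1.33 and 16.1 ± 1.33) did not pass either, although TRADD was higher in 5 of 5 operated retinas. It was the one gene of the 12 with the same sign in all 5 embryos that did not pass; 30.8% of all genes in the table had the same sign throughout.

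Both mitochondrial proteins that act in death and in respiration had lower transcripts. CYCS encodes cytochrome c, an electron carrier that triggers the apoptosome once it reaches the cytosol. It was at 235, 275, 290, 269 and 218 in controls and at 202, 191, 204, 195 and 207 in operated retinas, with no overlap. The operated values lay within a narrower range than the controls. The mean fell from 257 ± 29.7 to 199.9 ± 6.68 (log2 change -0.36, SE 0.077, limma adjusted p = 0.013; adjusted p = 0.066 without embryo 2 and 0.071 without embryo 4). AIFM1, a mitochondrial oxidoreductase that can cause death without caspases once it enters the nucleus, was at 185, 208, 215, 205 and 172 in controls and at 176, 173, 177, 160 and 148 in operated retinas. It was lower in 5 of 5 embryos (log2 change -0.24, SE 0.058, adjusted p = 0.021). That call was lost with no replicate block (adjusted p = 0.056) and without embryo 2, 3 or 4 (adjusted p = 0.096, 0.053 and 0.11).

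Other parts of the mitochondrial route did not pass. APAF1, the scaffold of the apoptosome, was at 25.9 ± 3.49 and 28.0 ± 2.68 (log2 change 0.11, 95% interval -0.09 to 0.31). CASP9, the caspase it activates, was at 8.45 ± 0.817 and 8.66 ± 0.922 (95% interval -0.17 to 0.23). DIABLO, which blocks caspase inhibitors, was at 45.1 ± 5.89 and 43.6 ± 2.78. The caspases CASP2, an initiator linked to genotoxic stress, and CASP6, an effector, were at 56.2 ± 9.06 and 54.9 ± 2.55 and at 53.4 ± 9.87 and 50.6 ± 4.84. For both, embryos 3 and 5 moved in opposite directions. CASP6 went from 64.5 to 45.9 in embryo 3 and from 40.2 to 57.1 in embryo 5. CASP1, which processes interleukin precursors in inflammation, was at 12.6 ± 4.05 and 10.6 ± 2.01 (adjusted p = 0.29).

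Among the survival genes only BCL2 passed. It reached the filter, a mean of at least 10 over all libraries, only through its operated retinas, since its control mean was 9.82. In the fit of all genes, which has no such filter, its limma adjusted p was 0.031. BCL2, the founding member of its family, was at 12.1, 7.59, 6.88, 7.82 and 14.7 in the controls of embryos 1 to 5 and at 12.1, 12.3, 12.3, 17.1 and 17.0 in operated retinas. Embryos 2, 3 and 4 had low controls and clear rises, embryo 1 was level, and the groups overlapped. On average BCL2 rose from 9.82 ± 3.41 to 14.2 ± 2.65, a log2 change of 0.52 with SE 0.15 (adjusted p = 0.034). The call was lost with no replicate block (adjusted p = 0.096), with quantile normalisation (adjusted p = 0.056) and without embryo 2, 3 or 4 (adjusted p = 0.11, 0.071 and 0.14). In 6 of 10 libraries the BCL2 value was no whole number of reads within a tolerance of 0.05, whereas the 11 other genes of the set with at most 700 reads in every library were whole in all 10 by the same tolerance. How the reads of BCL2 were counted is not given in the sources used here.

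None of the other survival genes passed. BCL2L1, which encodes BCL-XL, was at 39.9 ± 5.46 and 37.7 ± 2.32 (log2 change -0.07, 95% interval -0.26 to 0.12). MCL1, a short-lived survival protein, was at 23.7 ± 2.45 and 23.8 ± 4.15 (95% interval -0.23 to 0.22). BIRC2, a ubiquitin ligase of receptor complexes, was at 113 ± 11.4 and 111 ± 6.94 (95% interval -0.17 to 0.12), and XIAP, a direct inhibitor of caspases, at 19.8 ± 1.28 and 18.4 ± 1.24 (95% interval -0.28 to 0.08).

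Among the p53 response genes GADD45A and TP53INP1 rose, as did GADD45B in the fit of all genes, while MDM2 and MDM4, which restrain p53, did not pass. GADD45A, which p53 induces after DNA damage and other stresses, was at 19.1, 14.8, 14.3, 14.8 and 18.0 in controls and at 26.7, 28.4, 24.9, 23.3 and 21.9 in operated retinas. All operated values lay above all controls. Its mean rose from 16.2 ± 2.21 to 25.1 ± 2.62 (log2 change 0.60, SE 0.10, limma adjusted p = 0.0047). GADD45B, a relative known mainly as an early response gene of TGF-beta and NF-kappaB signalling, was at 4.69, 2.58, 3.41, 4.31 and 4.82 in controls and at 6.87, 7.61, 6.13, 6.60 and 7.28 in operated retinas, on 67 to 195 reads. Again the groups did not overlap, and the rise was largest in embryo 2, whose control was lowest. Its log2 change was 0.69 (SE 0.13, adjusted p = 0.0067 in the fit of all genes). Both GADD45 genes were called without each embryo in turn (adjusted p at most 0.030 and 0.028).

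TP53INP1, a p53 target that promotes p53-dependent death and autophagy, was at 50.7, 51.6, 50.3, 51.7 and 46.6 in controls and at 66.1, 59.7, 57.9, 68.9 and 62.9 in operated retinas. The controls were tightly grouped and lay below every operated value. The mean rose from 50.2 ± 2.11 to 63.1 ± 4.50 (log2 change 0.32, SE 0.064, limma adjusted p = 0.0094; adjusted p = 0.058 without embryo 4). In all, 7 of the 33 genes had groups that did not overlap, against 12.7% of all genes in the table. They were BMF, FAS, GADD45A, GADD45B and TP53INP1, which rose, and CASP10 and CYCS, which fell. The separation of FAS is not independent of how it came to be listed, so the count that includes it is a description only.

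MDM2, both a p53 target and its main ubiquitin ligase, was at 86.0, 89.0, 97.3, 89.6 and 81.4 in controls and at 92.0, 91.3, 97.3, 93.4 and 85.7 in operated retinas. Its log2 change was 0.05 with a 95% interval of -0.07 to 0.17 (adjusted p = 0.50). MDM4, its partner in restraining p53, was at 153 ± 8.06 and 145 ± 9.32 (95% interval -0.20 to 0.04). Of the other p53 targets, SESN1, a stress gene that restrains growth signalling, was at 26.2 ± 1.23 and 24.7 ± 1.41, and ZMAT3, an RNA-binding protein, at 19.9 ± 1.57 and 21.3 ± 2.11. TP53BP2, which directs p53 towards death genes, was at 202 ± 14.7 and 207 ± 13.0. CCNG1, a cyclin that feeds back on MDM2, had a mean of 140.1 ± 16.0 and 121 ± 6.38. It was lower in 4 of 5 embryos (log2 change -0.21, 95% interval -0.38 to -0.03) but did not pass over all embryos (adjusted p = 0.093); without embryo 1 it did (log2 change -0.26, adjusted p = 0.043).

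The embryos differed in how these genes lay in their controls. The control of embryo 5 had the lowest value of the 5 controls for 14 of the 28 tested genes, where 35.5% of all genes tested were lowest. The control of embryo 3 had the highest value for 15 of 28, where 30.7% of all genes were highest. Within embryos, 18 of 28 genes were higher in the operated retina in embryo 5 and 11 of 28 in embryo 3, against 48% and 47% of all genes tested. The median absolute log2 change of the 28 genes was 0.27 in embryo 3 and 0.13 in embryo 4, against 0.23 and 0.20 over all genes tested. Whether the pigment, mesenchyme and haemoglobin RNA in the control of embryo 5 has a part in this was not tested.

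Other genes of the pathways were counted from 6 lists. Of 146 tested genes, 14 rose and 16 fell, 20.5% against 22.9% of all genes tested. Among 35 further genes listed as p53 targets, whose control by p53 was not tested here, 8 rose, 3 fell and 24 did not pass (median log2 change 0.02). That is 31.4% called in this list, where 10.6% of all genes tested rose and 12.3% fell. Those that rose include TP53INP2, which reached the filter only through its operated retinas (control mean 8.89, operated mean 13.1). The growth-restraining genes BTG1 and BTG2 had the lowest p of this list. BTG1 was at 78.1 ± 6.39 and 126 ± 8.78, a log2 change of 0.68 (adjusted p = 0.0003), and BTG2 at 11.6 ± 0.633 and 20.1 ± 2.55, a log2 change of 0.74 (adjusted p = 0.0015). TRIAP1, which protects cells from p53-dependent death, fell from 51.5 ± 2.94 to 39.4 ± 3.73 (adjusted p = 0.012, and up to 0.067 without embryo 2 or 4).

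Among 21 further caspase, inhibitor and executioner genes, 3 rose, 3 fell and 15 did not pass (median log2 change -0.11). That is 28.6% called, against 22.9% of all genes tested. The death-associated kinase gene DAPK1 rose from 44.8 ± 8.46 to 56.2 ± 10.5 (limma adjusted p = 0.0065, or 0.17 if embryos are not blocked), whereas DAPK2 fell from 12.3 ± 0.945 to 8.45 ± 1.14 (adjusted p = 0.011, and 0.057 without embryo 2). DAPK2 reached the filter, a mean of at least 10, only through its controls. In the fit of all genes its limma adjusted p was 0.0096. Of 11 other BCL2 family and mitochondrial channel genes, 1 rose, 1 fell and 9 did not pass (18.2% called, against the same 22.9%). BNIP3L, a receptor for removal of mitochondria, rose from 227 ± 16.2 to 290.3 ± 24.8 (adjusted p = 0.0093, and 0.058 without embryo 4), and the channel gene VDAC3 fell from 275 ± 33.3 to 221 ± 20.02 (adjusted p = 0.026, and up to 0.12 with embryo 2, 3 or 4 left out).

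Of 21 other death receptor and adaptor genes, 2 rose, 0 fell and 19 did not pass (9.52% called, against 22.9% of all genes tested). TRAF3, a signalling adaptor, rose from 34.6 ± 2.64 to 41.7 ± 2.90 (adjusted p = 0.025, and up to 0.11 without embryo 2, 4 or 5). TNFSF10, the death ligand TRAIL, rose from 214 ± 7.60 to 244 ± 13.3 (adjusted p = 0.033, and up to 0.13 with trimmed-mean rescaling or without embryo 2, 3, 4 or 5). Of 25 genes of the p53 family and its regulators, 0 rose and 4 fell (16.0%, where 12.3% of all genes tested fell), led by USP10, a deubiquitinase of p53 (372 ± 16.6 to 296 ± 8.07, log2 change -0.33, adjusted p = 0.0034). TPRKB, a partner of the p53-related kinase, and BRD7, a bromodomain cofactor of p53, also fell (adjusted p = 0.013 and 0.016; up to 0.072 without embryo 4 for TPRKB, and up to 0.080 without embryo 2 or 4 for BRD7). Of 33 DNA damage sensing genes, 0 rose, 5 fell (15.2%, against the same 12.3%) and 28 did not pass (median log2 change -0.09). The ubiquitin ligase RNF8, which acts at DNA breaks, fell from 103 ± 9.11 to 81.8 ± 1.97 (adjusted p = 0.0097; up to 0.058 without embryo 2 or 4). RAD1, of the clamp that loads at damaged DNA, fell from 29.04 ± 6.24 to 21.7 ± 6.17 (limma adjusted p = 0.0099, or 0.18 if embryos are not blocked and 0.058 without embryo 4).

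**Figure D4:**
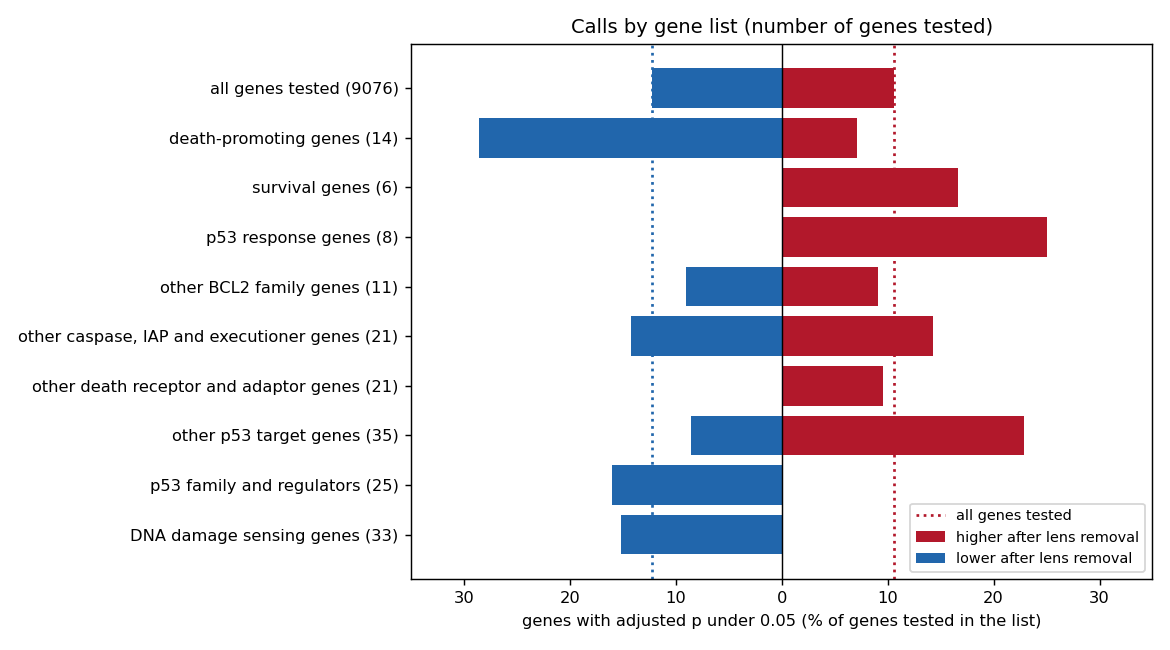
Share of the tested genes in each list (horizontal axis, percent; number tested in brackets) with adjusted p under 0.05 that were higher (red, right) or lower (blue, left) after lens removal; dotted lines are the shares over all genes tested, 10.6% and 12.3%. The p53 regulator and DNA damage lists have 0 genes to the right, and the lists hold 6 to 35 genes each.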

How the data were processed

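The values deposited by the authors are a signal per gene, normalised read counts whose library totals (979286 to 1033235) they had made nearly equal. Per the submitters' processing notes, the tools were HISAT2 2.1.0, featureCounts, Subread 1.6.2, Trim Galore 0.6.4, SAMtools 1.9 and FastQC 0.11.8, with no role given, and the build was GRCg6a. The scaling, annotation and strand setting are not given in the sources used here. Per the labels' protocols, stranded libraries of polyadenylated RNA were read as 75 bp pairs, and all carry batch number 128.

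Low values were spaced by the worth of 1 read, and 89.8% to 91.6% of values up to 400 reads were whole within 0.01. No count model was used, as the deposited values are normalised and not all of them are whole reads. limma 3.58.1 in R 4.3.3 was fitted with an intensity trend to log2(value + 1), embryo as block, two-sided, for the 9076 genes whose mean was 10 or more, and checked on simulated data. The titles number the embryos; deviations within pairs correlated at 0.31 to 0.76. Alternatives were other pseudocounts, filters, scalings, priors, no block and leaving out each embryo. Python 3.11.15 drew the figures. The symbols of 33 of the 35 listed genes matched the RefSeq gene table of GRCg7b, which was used for neighbours only. All genes of the list and all genes past the threshold are described, and up to 3 passing genes of each other list in order of p (some that this rule selects are not reported here). The genes and lists were chosen with earlier results of these data known.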

Additional observations from a re-analysis of the deposited data

Results flagged for a closer look

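For each of the 33 genes the 5 control levels, the 5 operated levels and the 5 within-embryo changes were searched for a single value far from the rest, by Dixon's test at the 95% level. Of 99 such groups 7 were flagged; chance flags about 1 in 20. In operated retinas these were the low CASP10 level of embryo 2 (22.7, the next being 25.3), the high BID level of embryo 1 (216, the next being 186) and the low MDM4 level of embryo 5 (129, the next being 146). In controls they were the high TRADD level of embryo 3 (17.0, the next being 14.6) and the low TP53INP1 level of embryo 5 (46.6, the next being 50.3). Of the changes, that of TP53BP2 in embryo 5 was -0.17 where the other 4 were 0.05 to 0.13. The change of GADD45B in embryo 2 was 1.27 where the other 4 were 0.47 to 0.70.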

How the results depend on the processing

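In the main fit 4 of the 28 genes rose and 4 fell, with 963 higher and 1112 lower of all genes tested. With no filter 7 rose and 4 fell. With a minimum mean of 50, 1 rose and 2 fell, and of all genes 412 were higher and 814 lower. Fewer genes were tested there. Leaving out 1 embryo gave 2 to 4 higher and 1 to 5 lower, and 381 to 1373 higher and 298 to 1470 lower over all genes. With no replicate block, 3 rose and 3 fell, and 701 and 783 of all genes. The other alternatives kept each of these counts within 1.5 times. Of the 11 genes called, 5 (BMF, CASP10, FAS, GADD45A and GADD45B) kept their call under every alternative in which they were fitted. For FAS this is a description only, as its listing rested on its operated retinas. FAS and GADD45B were fitted under 8 alternatives, none with another scaling or prior, against 12 for BMF, CASP10 and GADD45A. The other 6 lost their call under at least 1 alternative, and none of the 11 changed sign. Of 22 genes not called, 8 changed sign under some setting: BID was at -0.015 with trimmed-mean rescaling, and without 1 embryo the log2 change ranged from -0.12 to 0.046 for CASP2, -0.20 to 0.042 for CASP6, -0.021 to 0.16 for BAK1, -0.071 to 0.065 for BID, -0.12 to 0.039 for DIABLO, -0.075 to 0.090 for MCL1, -0.070 to 0.027 for BIRC2 and -0.021 to 0.089 for BOK. Of the 16 other pathway genes that the naming rule selects, 12 lost their call under at least 1 alternative and none changed sign. Fits of the low genes without 1 embryo, without the block and at other pseudocounts were chosen after seeing the data. The causes were not tested.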
